A study of Caenorhabditis elegans with 6 samples.

Results

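The comparison described here is between worms fed a mixture of *Escherichia coli* OP50 and *Lactococcus lactis* strain LL100933 (OP50 + LL100933) and worms fed OP50 alone. It rests on the 4 libraries, of 6 in the series, whose labels give these diets, with 2 libraries per diet. All worms were wild-type Bristol N2 hermaphrodites. They were 3 days old when feeding on the test diet began, and whole animals, about 200 per group, were collected after 5 days of feeding. The remaining 2 libraries, from worms fed OP50 with the nisin-producing strain LL12007, entered the statistical model and are given for reference. The labels write the strain number as 100923 and the design text as 100913, while the study calls it LL100933, the name used here. The mixture held equal parts of the bacteria, so added *Lactococcus* and a smaller share of OP50 cannot be told apart. The labels do not say whether the libraries of a diet came from separate cultures, so the spread behind the p-values may be technical.

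*C. elegans* lives on bacteria, which the pharynx, a muscular pump lined by its own cuticle, grinds before they enter the intestine. Crawling is driven by the body wall muscle, whose sarcomeres pull on the cuticle through dense bodies and the epidermis, under the control of motor neurons that signal with acetylcholine, GABA and neuropeptides. The adult hermaphrodite also carries a large germline, whose oocytes are loaded with yolk made in the intestine and are wrapped in an eggshell after fertilisation. The study compared the diets because worms fed *Lactococcus* were tested for lifespan, movement and fat content, and the RNA data addressed which genes differed with the diet.

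The OP50 libraries held 21691687 and 17280251 counts and the OP50 + LL100933 libraries 19763455 and 15748820. The tables list 46904 genes, of which 22505 had a count in some library and 14899 were abundant enough to be tested. Levels are given as normalized counts, that is, read counts scaled to one library size for all libraries, and differences as log2 fold changes of OP50 + LL100933 over OP50 with their standard error (SE). A gene was called when its adjusted p from the quasi-likelihood test of edgeR was under 0.05. The libraries of a diet were not equally alike. Among 9727 genes with a mean normalized count of 100 or more, 283 differed over 2-fold between the OP50 libraries (2.91%), against 15 between the OP50 + LL100933 libraries (0.154%) and 4 between the OP50 + LL12007 libraries (0.0411%). Ribosomal RNA genes took 0.919% of the counts in OP50 + LL100933 replicate 1 and 0.0841% to 0.174% in the other libraries. Muscle (*myo-3*, *unc-54*), neuron (*snb-1*, *rab-3*), intestine (*elt-2*, *ges-1*) and germline (*glh-1*, *pgl-1*) markers were each counted in the 4 libraries, at 182 to 72959 counts. The sensory genes of males, *lov-1* and *pkd-2*, had at most 18 counts in a library.

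A total of 628 genes were higher (4.22% of the genes tested) and 288 were lower (1.93%) with OP50 + LL100933, together 6.15%. The changes were modest in size. Called higher genes had log2 fold changes of 0.43 to 3.51 with a median of 0.78, and 156 of them exceeded 1. Called lower genes ranged from -2.58 to -0.40 with a median of -0.52, and 11 were below -1. The median over all genes tested was 0.02. In each of the 916 called genes both libraries of one diet lay above both libraries of the other, which was also the case for 59.1% of all genes tested (29.2% higher and 29.9% lower), so separation of 2 against 2 libraries is by itself common in these data. An exact permutation test of 2 against 2 libraries has 0.333 as its smallest two-sided p, and the calls therefore rest on the spread that the model shares across genes and across the 6 libraries.

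**Figure D1:**
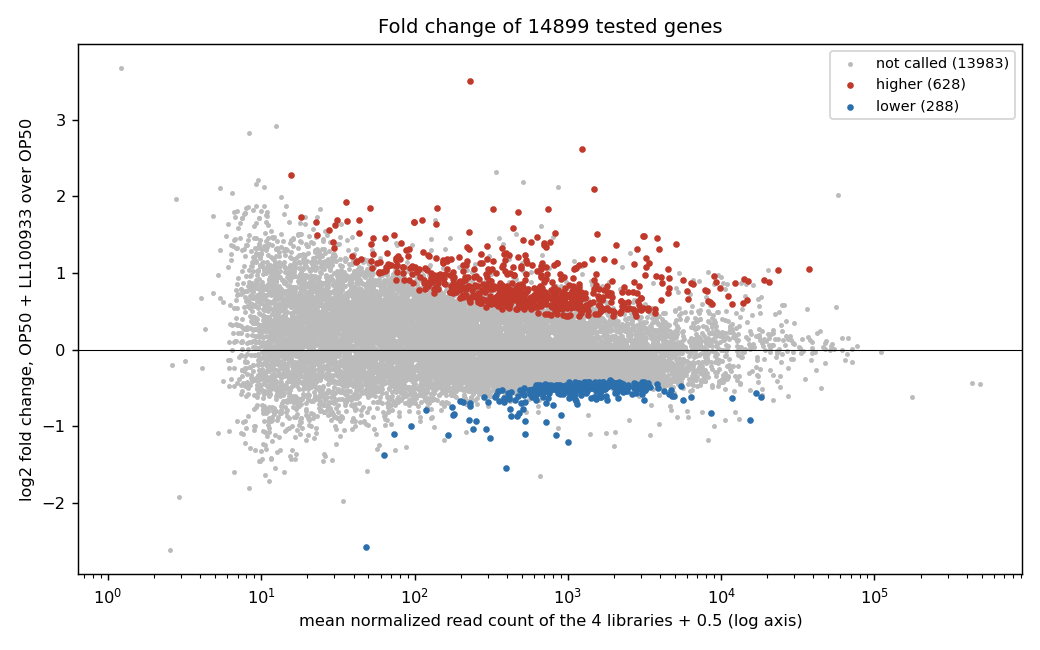
Log2 fold change of OP50 + LL100933 over OP50 (vertical axis) against the mean normalized count of the 4 libraries plus 0.5 (horizontal log axis) for 14899 tested genes. Red points are the 628 genes called higher, blue points the 288 called lower and grey points the rest. Most called genes lie within 1 log2 unit of the zero line.

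The number of called genes depended strongly on which libraries were in the model. All 916 genes kept their sign, with an unadjusted p under 0.05, in each of 16 alternative analyses. The alternatives reused the libraries that had selected these genes, and the diets overlapped in none of the called genes. A reversed sign was therefore hardly possible, and the kept signs are not independent support. At the adjusted threshold the analyses differed. With upper-quartile scaling 819 genes were higher and 123 lower, so 86.9% of the calls were higher against 68.6% as reported. Without OP50 replicate 1 the test called 1643 genes higher and 1029 lower. Without either OP50 + LL100933 library it called at most 5 higher and 0 lower, although 2654 and 4554 genes then had an unadjusted p under 0.05. Without either LL12007 library it called 48 and 56 genes higher and 5 and 4 lower. One gene, *Y41C4A.32*, was called in every one of the 6 fits that left out a library. Counts of called genes are therefore given below with the fold changes of the members, and gene groups are described by both.

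**Figure D2:**
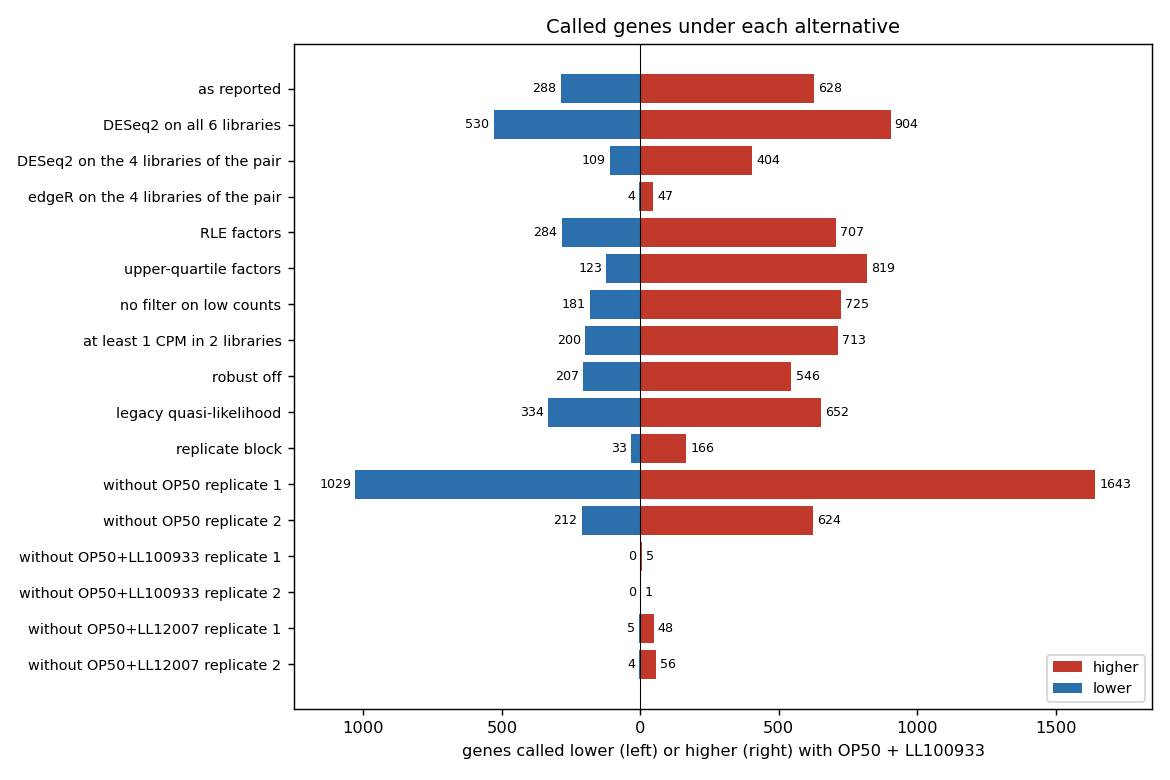
Number of genes called higher (red, right) or lower (blue, left) with OP50 + LL100933, as reported and under 16 alternatives. The horizontal axis counts genes. The reported 628 and 288 lie between 1643 and 1029 genes without OP50 replicate 1 and 1 and 0 genes without OP50 + LL100933 replicate 2.

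The gene with the largest rise among called genes was *Y41C4A.32*, a protein-coding gene known only by its sequence name (chromosome III, 11721706 to 11723602, genome build ce11). Its normalized counts were 32.5 and 42.4 with OP50 and 493 and 356 with OP50 + LL100933. Both values with OP50 + LL100933 were far above both OP50 values, and the log2 fold change was 3.51 ± 0.22 (adjusted p = 0.000779). *C42D4.3* on chromosome IV came next, with 460.2 and 228 with OP50 and 2014 and 2250.1 with OP50 + LL100933, and 2.62 ± 0.31 (adjusted p = 0.0237) as its log2 fold change. The OP50 values of *C42D4.3* were themselves widely apart, yet stayed well below the OP50 + LL100933 values. The genes *R02E4.3* and *C45B2.2* lie on chromosome X. *R02E4.3* had 159.8 and 122 with OP50 and 499 and 514 with OP50 + LL100933, a log2 fold change of 1.84 ± 0.16 (adjusted p = 0.00462). *C45B2.2* had 375 and 268 with OP50 and 1084 and 1227 with OP50 + LL100933, and its log2 fold change was 1.84 ± 0.18 (adjusted p = 0.00616). In both genes the libraries of each diet were close together. The diets did not overlap, as in every called gene.

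Among the genes of lowest p, *ZK84.1* on chromosome II was the most abundant of the steepest risers. It was measured at 1907 and 2185 with OP50 and 5549.7 and 5721 with OP50 + LL100933, with a log2 fold change of 1.46 ± 0.12 (adjusted p = 0.00383), and was called in 15 of 16 alternatives. *pqn-71*, which encodes a protein with a glutamine- and asparagine-rich stretch, had 325 and 338 with OP50 and 826 and 1019.6 with OP50 + LL100933 and a log2 fold change of 1.48 ± 0.14 (adjusted p = 0.00597), and it too was called in 15 of 16. Reads of *ZK84.1* could include some of *R12C12.9*, an annotated gene on the opposite strand that overlaps it, since the strand setting of the counting is not given in the sources used here. Other named rises over 1.6 log2 units, beside those described with their gene groups, were *oac-15* (an acyltransferase homolog, 2.27), *Y71H2AM.25* (1.93), *nspb-11* (1.85), *dct-5* (1.84), *ZK418.11* (1.73), *T07H8.11* (1.70), *unc-46* (1.697) and *B0310.6* (1.69). Apart from *nspb-11*, each of these had under 100 normalized counts in every library of the pair. *unc-46*, needed to place the GABA transporter on synaptic vesicles, had 19.97 and 8.09 with OP50 and 43.5 and 51.4 with OP50 + LL100933.

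**Figure D3:**
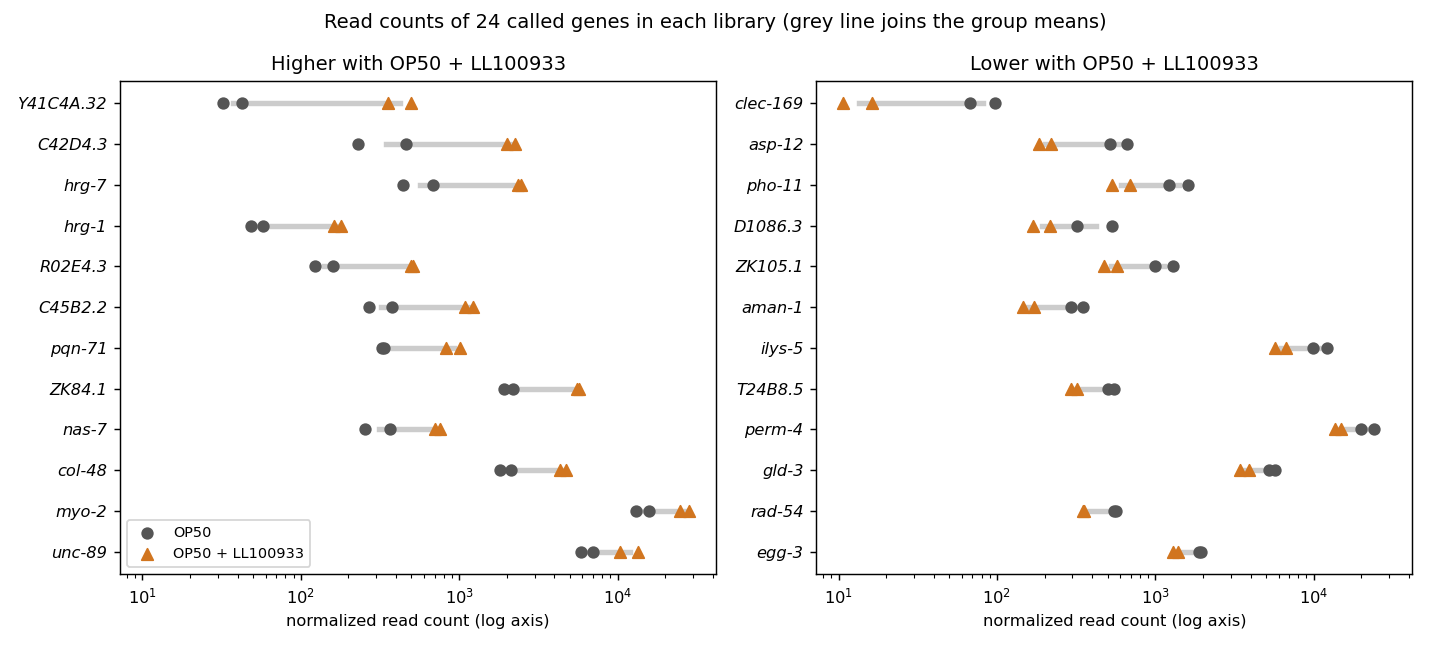
Normalized counts (horizontal log axis) of 12 genes called higher (left) and 12 called lower (right) in each library. Circles are OP50 libraries, triangles OP50 + LL100933 libraries, and the grey line joins the group means. In each gene the diets do not overlap, as in every called gene, and *Y41C4A.32* and *clec-169* have the widest gaps.

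Genes of heme handling were among the strongest rises. *C. elegans* makes no heme of its own and takes it from its food, and the heme-responsive *hrg* genes serve this uptake. *hrg-1*, an importer that moves heme out of lysosome-related compartments of the intestine, had 48.3 and 57.6 with OP50 and 163 and 179 with OP50 + LL100933, and its log2 fold change was 1.69 ± 0.21 (adjusted p = 0.0152). *hrg-7*, a secreted protein related to aspartic proteases that carries heme status between intestine and neurons, had 685 and 441 with OP50 and 2452 and 2365 with OP50 + LL100933 and a log2 fold change of 2.09 ± 0.20 (adjusted p = 0.00645). The libraries of both genes were tightly grouped with OP50 + LL100933 and lay more than 1 log2 unit above every OP50 library. Of 7 *hrg* genes tested these 2 were called (28.6%, against 4.22% of all genes tested), and the median of the 7 was 0.55. It ran from 0.31 to 0.92 when 1 library was left out. Both *hrg-1* and *hrg-7* were called in 14 of 16 alternatives and missed the threshold without either OP50 + LL100933 library. *hrg-7* overlaps *C15C8.7* and *hrg-1* overlaps *mop-25.1* on the genome.

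In 5 lists of muscle genes, 22 of 74 tested members were called higher (29.7%, against 4.22% of all genes tested) and 0 lower, 52 were not called, 70 had a fold change above 0, and the median was 0.49. All 6 members of the pharyngeal muscle list were called. *myo-2*, a myosin heavy chain made only in pharyngeal muscle, had 15797 and 13023 with OP50 and 24951 and 28360 with OP50 + LL100933, a log2 fold change of 0.89 ± 0.16 (adjusted p = 0.0296). The other pharyngeal myosin heavy chain gene, *myo-1*, rose by 0.90 ± 0.17, *myo-5*, also a myosin heavy chain, by 0.96 ± 0.15, and the pharyngeal troponins *tnc-2*, *tnt-4* and *tni-4* by 0.91 ± 0.12, 0.89 ± 0.16 and 0.76 ± 0.16 on the log2 scale. The summed level of these 6 genes was 55430 and 44130 with OP50 and 86550 and 98210 with OP50 + LL100933, so the diets were well apart.

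In body wall muscle the thick filament and M-line list held 7 called of 15 tested, with a median of 0.63 and all 15 above 0. This was a share of 46.7%, against 4.22% of all genes tested. *unc-89*, the obscurin of the M-line, had 7006 and 5884 with OP50 and 10432 and 13418 with OP50 + LL100933, and its log2 fold change was 0.89 ± 0.16 (adjusted p = 0.0296). *ttn-1*, a titin-like protein, had 3834 and 3953 with OP50 and 6183 and 8454 with OP50 + LL100933 and 0.91 ± 0.16 (adjusted p = 0.0269). Its span on chromosome V overlaps the potassium channel gene *exp-2*. *unc-96*, another M-line protein, and *myo-3*, a body wall myosin heavy chain, changed by 0.75 ± 0.15 and 0.65 ± 0.15. In the thin filament list 2 of 17 were called (11.8%), the troponins *tni-3* (0.75) and *tnt-3* (0.78). In the list of dense bodies and attachment 2 of 18 were called (11.1%), the vinculin gene *deb-1* (0.64) and *uig-1* (0.54). The excitation list held 5 of 18 (27.8%), among them *ccb-1*, a calcium channel beta subunit (0.74), the junctophilin *jph-1* (0.71) and the T-type calcium channel *cca-1* (0.62). *let-805*, which links epidermis to muscle, rose by 0.60 ± 0.14 and the calponin-like *clik-2* by 0.87 ± 0.18. Basement membrane genes gave 0 called of 16 by edgeR and 0 by DESeq2, with 5 at an unadjusted p under 0.05 and a median of 0.08. The 22 called muscle genes became 61 without OP50 replicate 1, 19 without OP50 replicate 2, and 0 or 1 without any one *Lactococcus* library, while the median of the 74 stayed between 0.37 and 0.70.

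Genes of the pharyngeal lining were also higher. Of 10 tested *abu* genes, which encode repeat-rich proteins of the pharyngeal cuticle, 6 were called (60.0%, against 4.22% of all genes tested). The median was 1.21, with all 10 above 0 and a range of 0.77 to 1.78 for the median when 1 library was left out. DESeq2 on all 6 libraries also called 6. By edgeR, 1 was called on the 4 libraries of the pair and 1 with the replicate number added to the model. *abu-11* had 880.5 and 723 with OP50 and 1545 and 1929.9 with OP50 + LL100933, a log2 fold change of 1.11 ± 0.15 (adjusted p = 0.0152). *abu-14* had 3438 and 2352 with OP50 and 4998 and 5609.8 with OP50 + LL100933 and 0.87 ± 0.17 (adjusted p = 0.0363). As near-identical copies exist in this family, reads may be divided among them. The gene *chs-2*, which makes the chitin of the pharynx, had 839.7 and 773 with OP50 and 1062 and 1287 with OP50 + LL100933 and was higher by 0.54 ± 0.13. It was the 1 called of 18 tested genes of chitin and chitinase (5.56%), with 12 above 0 and 6 below. The summed level of that list was 18720 and 21340 with OP50 and 15340 and 14060 with OP50 + LL100933. DESeq2 on all 6 libraries called 1 of the list higher and 3 lower. Astacin metalloproteases, secreted enzymes of which several act on cuticle, gave 6 called of 31 (19.4%, against 4.22% of all genes tested) with a median of 0.36, which ran from 0.19 to 1.03 when 1 library was left out. *nas-7* was measured at 366 and 254 with OP50 and 759 and 706 with OP50 + LL100933, a log2 fold change of 1.24 ± 0.17 (adjusted p = 0.017). *nas-38* showed 293 and 126 with OP50 and 701 and 773 with OP50 + LL100933, with a wide gap between its OP50 libraries, and 1.80 ± 0.36 (adjusted p = 0.0466). Of the genes annotated in the count tables to pharyngeal pumping, 5 of 16 were called higher (31.2%, against 4.22% of all genes tested) and 0 lower. Their median was 0.56, with 3 below 0. Regulation of locomotion gave 6 of 39 higher (15.4%) and 0 lower, with a median of 0.29 and 11 below 0. Locomotion gave 8 higher (8.7%) and 1 lower (1.09%) of 92, with a median of 0.20 and 30 below 0.

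In 7 lists of synaptic, channel, receptor, gap junction, cilium and guanylyl cyclase genes, 39 of 402 tested members were called higher and 0 lower. The share was 9.70%, against 4.22% of all genes tested. Of the 402 members 366 lay above 0, and the median was 0.52. These lists, called neuronal here, also hold members of other tissues, such as the pharyngeal *inx-6*. Vesicle release stood out with 11 of 28 called and all 28 above 0. *unc-10*, the RIM protein of the active zone, had 518 and 516 with OP50 and 746 and 993 with OP50 + LL100933, a log2 fold change of 0.75 ± 0.15 (adjusted p = 0.0354). *ida-1*, a protein of dense core vesicles that hold neuropeptides, had 4844 and 4509.5 with OP50 and 6788 and 8069.9 with OP50 + LL100933 and 0.67 ± 0.13 (adjusted p = 0.0354). *aex-3*, an activator of Rab3, changed by 0.64 ± 0.12, and rabphilin, *rbf-1*, by 0.76 ± 0.19. For these genes each OP50 + LL100933 library was above each OP50 library, as in every gene called higher and in 29.2% of all genes tested. Potassium channels gave 10 of 70, including *twk-7* (0.83), *twk-31* (0.63) and *twk-8* (0.77). Ligand-gated channels gave 4 of 94 (4.26%, close to the share of all genes), with *lgc-21* at 503 and 347 with OP50 and 864 and 997 with OP50 + LL100933. Of receptors for neuropeptides and monoamines 6 were called (5.71%), among them the muscarinic receptor *gar-3* (0.82) and the cholecystokinin-like receptor *ckr-2* (0.82). Innexins, which form gap junctions, gave 4 of 25, with *unc-9* at 0.84, *inx-18* at 1.05 and the pharyngeal *inx-6* at 0.68. Cilium genes gave 3 of 50 (6%), *che-10* (0.63), *che-12* (0.64) and the kinesin *osm-3* (0.78), and guanylyl cyclases 1 of 30 (3.33%), *daf-11*. The shares of these receptor, cilium and cyclase lists lay within 2 percentage points of the 4.22% of all genes. The 39 calls became 103 without OP50 replicate 1, 25 without OP50 replicate 2 and 0 or 1 without any one *Lactococcus* library, with medians of 0.39 to 0.64. In whole worms, more cells of a type and more RNA per cell cannot be told apart.

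Genes of the cuticle and epidermis were higher in part. Cuticle collagens, which build the exoskeleton, gave 17 called higher and 2 called lower of 145 tested (11.7% and 1.38%, against 4.22% and 1.93% of all genes tested), with a median of 0.51 that ran from 0.19 to 0.97 when 1 library was left out. *col-48* had 2139.6 and 1803 with OP50 and 4715 and 4330 with OP50 + LL100933, *col-109* had 1794 and 1611 with OP50 and 3711 and 3654 with OP50 + LL100933, and *col-113* had 548 and 517 with OP50 and 1147 and 1184 with OP50 + LL100933. Their log2 fold changes were 1.20 ± 0.12 (adjusted p = 0.00616), 1.11 ± 0.11 (adjusted p = 0.00616) and 1.13 ± 0.11 (adjusted p = 0.00597), with the libraries of each diet close to each other. *col-122*, by contrast, fell from 23124 and 17277 to 11723 and 9582, with a log2 fold change of -0.92, and so did the low-level *col-158* (-1.37). Many collagens were spread widely between the OP50 libraries. Their summed level was 486300 and 310700 with OP50 and 502200 and 452500 with OP50 + LL100933. Replicate 1 of OP50 thus lay among the *Lactococcus* values. The median of the list was 0.97 without that library and 0.19 without OP50 replicate 2. A model that included the replicate number gave 11 collagens higher and 11 lower, so the excess of rises was lost there. With edgeR restricted to the 4 libraries of the pair, 8 were higher and 0 lower. Cuticlins and proteins of the apical matrix gave 6 higher and 1 lower of 52. *cut-2*, a cuticlin, was measured at 9884 and 9559 with OP50 and 19495 and 17482 with OP50 + LL100933, a log2 fold change of 0.93 ± 0.14 (adjusted p = 0.0193). *cutl-25*, at -1.10, was the one called lower.

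Hedgehog-related proteins and their patched-related partners, which in *C. elegans* act mainly in epidermis and moulting, were also higher in several members and lower in none of those called. The hedgehog-related and ground-like list gave 7 of 45 (15.6%) with a median of 0.47. The patched-related list gave 5 of 26 (19.2%) with a median of 0.34. Of all genes tested, 4.22% were called higher. *grl-4* had 979.5 and 618 with OP50 and 2047 and 2512 with OP50 + LL100933, a log2 fold change of 1.51 ± 0.24 (adjusted p = 0.0305). *wrt-8* had 340.4 and 230.4 with OP50 and 620.2 and 704 with OP50 + LL100933 and *ptr-16* had 206 and 198 with OP50 and 407 and 372 with OP50 + LL100933, with log2 fold changes of 1.21 ± 0.19 and 0.94 ± 0.14. Epidermal antimicrobial peptides had 3 called of 36 (8.33%) and a median of 0.66 (0.34 to 0.90 when 1 library was left out), with 32 above 0. Those called were *cnc-4* (1.10), *nlp-29* (0.74), a peptide induced by wounding and fungal infection, and *fipr-3* (1.16). The 24 genes of larval moulting gave 0 called by edgeR and 2 by DESeq2, with 8 at an unadjusted p under 0.05 and a median of 0.25.

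**Figure D4:**
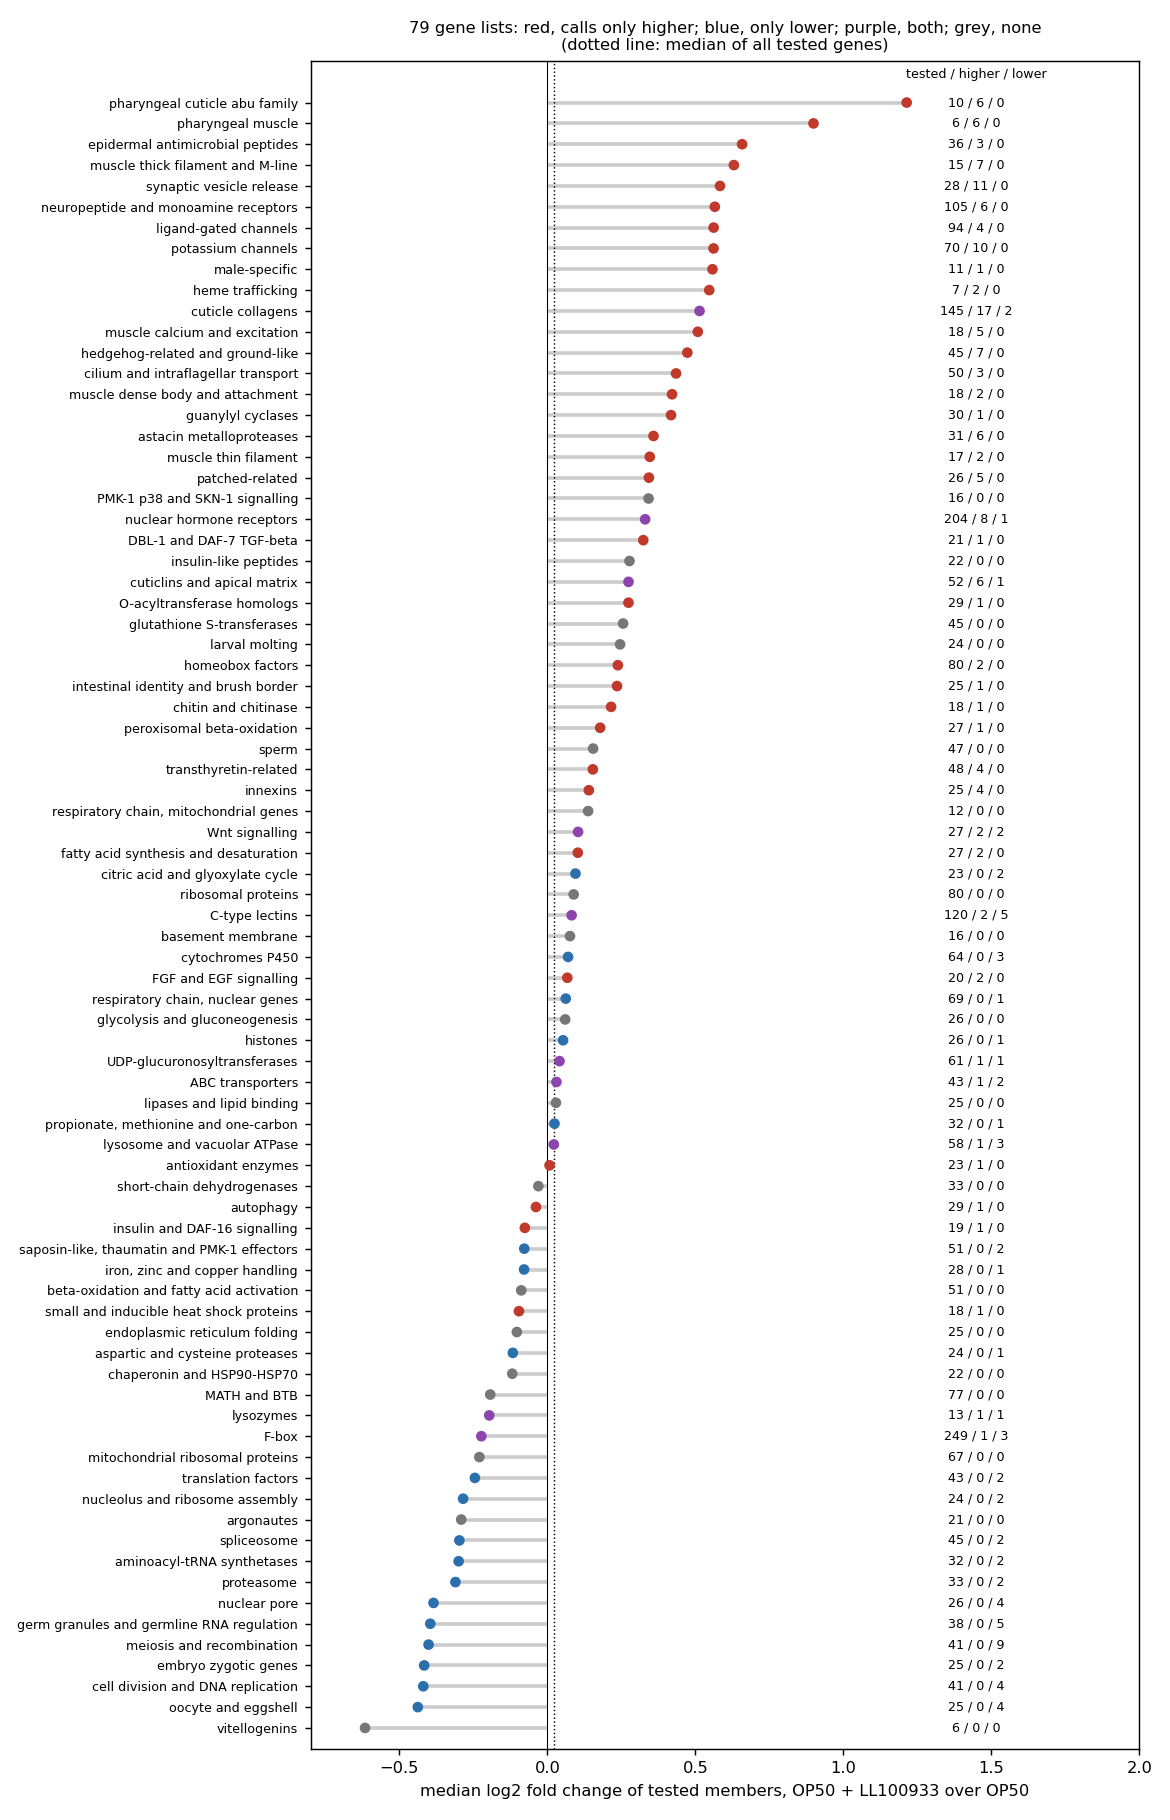
Median log2 fold change of OP50 + LL100933 over OP50 (horizontal axis) of the tested members of 79 gene lists, with the numbers tested, called higher and called lower at the right. Red lists had calls only higher, blue only lower, purple both and grey none. The pharyngeal cuticle (1.21), pharyngeal muscle (0.90), epidermal antimicrobial peptide (0.66) and thick filament (0.63) lists have the highest medians. Other muscle and neuronal lists reach down to 0.35 (thin filament) and 0.14 (innexins). Vitellogenin, germline and embryo lists lie at the bottom.

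Among called genes, the greatest rises in absolute counts came from *F41F3.3* and *ZK180.5*, which have no name beyond their sequence. *F41F3.3* had 29616 and 19370 with OP50 and 56878 and 44415 with OP50 + LL100933, a log2 fold change of 1.05 ± 0.23 (adjusted p = 0.0431). *ZK180.5* had 17624 and 13165 with OP50 and 31934 and 31550 with OP50 + LL100933 and 1.04 ± 0.18 (adjusted p = 0.0249). Of the other 8 genes in the set of 10 with the greatest rise, 7 belong to muscle or its attachment (*myo-1*, *myo-2*, *myo-3*, *myo-5*, *tnt-4*, *clik-2* and *let-805*) and 1 to the cuticle (*cut-2*).

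Genes examined in the study by real-time PCR gave a mixed picture. The study picked these genes with these libraries at hand, so their direction here is not independent evidence. For the OP50 + LL100933 diet, the study reported rises of *nas-7* and *unc-89* by that method. The rises it reported for *cyp-33E2*, *unc-105*, *let-756* and *rbf-1* were with the LL12007 diet, so their values below do not bear on those reports. *let-756*, a fibroblast growth factor, had 761 and 600.3 with OP50 and 1026 and 1269 with OP50 + LL100933, a log2 fold change of 0.75 ± 0.15 (adjusted p = 0.0361). *daf-11*, a guanylyl cyclase of sensory neurons, had 84.1 and 72.8 with OP50 and 153 and 171 with OP50 + LL100933 and 1.04 ± 0.20 (adjusted p = 0.0354). *rbf-1*, *tnt-4*, *unc-89* and *nas-7* were also called, as given above. *clhm-1*, a calcium homeostasis modulator channel, was measured at 94.0 and 94.0 with OP50 and 151 and 156 with OP50 + LL100933. It did not pass the threshold, with 0.71 ± 0.20 (adjusted p = 0.0604). The diets did not overlap, which was so for 59.1% of all genes tested. *unc-105*, a degenerin channel of muscle, had 207 and 133 with OP50 and 201 and 290.2 with OP50 + LL100933, with overlapping libraries and 0.52 ± 0.24 (adjusted p = 0.177). The values of *cyp-33E2* were 79.9 and 63.7 with OP50 and 70.7 and 95.3 with OP50 + LL100933, 0.19 ± 0.30 (adjusted p = 0.683). The regulators *daf-16* (0.29 ± 0.11 (adjusted p = 0.103)), *skn-1* (-0.11 ± 0.11 (adjusted p = 0.536)) and *pmk-1* (0.37 ± 0.16 (adjusted p = 0.157)) and the reference genes *act-1* (0.31 ± 0.19 (adjusted p = 0.28)), *tba-1* (-0.20 ± 0.16 (adjusted p = 0.419)) and *cyc-1* (0.06 ± 0.14 (adjusted p = 0.776)) did not pass the test.

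Around these regulators, the list of PMK-1 p38 and SKN-1 signalling genes gave 0 called of 16 by edgeR and 1 by DESeq2, with 9 at an unadjusted p under 0.05, 15 above 0 and a median of 0.34. It gave 1 call in each fit without an OP50 library. The insulin and DAF-16 list gave 1 of 19, the insulin receptor substrate *ist-1* (0.72), with a median of -0.08. Its share of 5.26% was near the 4.22% of all genes tested. The 22 insulin-like peptides gave 0 by edgeR and 0 by DESeq2, with 4 at an unadjusted p under 0.05. The TGF-beta list gave 1 of 21 (4.76%, also near that share), *daf-5* (0.61), a Sno/Ski-like cofactor of the dauer pathway. In the Wnt list *bar-1*, a beta-catenin (0.63), and *axl-1*, an axin (0.83), rose, and the ligand *mom-2* (-0.56) and the dishevelled *dsh-2* (-0.43) fell, out of 27. Each direction made up 7.41% of the list, against 4.22% higher and 1.93% lower of all genes tested. Nuclear hormone receptors gave 8 higher and 1 lower of 204, a share of 3.92% higher that is close to the 4.22% of all genes.

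Among the largest falls were a C-type lectin and several hydrolases. *clec-169*, a C-type lectin, had 96.5 and 67.7 with OP50 and 16.3 and 10.7 with OP50 + LL100933, the largest fall among called genes, with a log2 fold change of -2.58 ± 0.35 (adjusted p = 0.0152). *asp-12*, an aspartic protease, had 519 and 662 with OP50 and 184 and 219.6 with OP50 + LL100933 and -1.55 ± 0.17 (adjusted p = 0.00889). In both genes the OP50 libraries lay far above the others. *pho-11*, an acid phosphatase, had 1598 and 1215 with OP50 and 531 and 691 with OP50 + LL100933, a log2 fold change of -1.20 ± 0.17 (adjusted p = 0.017), though it overlaps *C05C10.3*. *aman-1*, an alpha-mannosidase of lysosomes, had 351 and 294 with OP50 and 145 and 170.3 with OP50 + LL100933 and -1.04 ± 0.17 (adjusted p = 0.0249). Falls near or beyond 1 log2 unit were also measured for *D1086.3* (-1.15), *ZK105.1* (-1.11), *pud-1.1* (-1.11), *clec-186* (-1.10), *F09C8.1* (-1.04), the transporter *snf-9* (-0.996), *Y105C5B.15* (-0.95), the glucuronosyltransferase *ugt-44* (-0.94) and *B0035.13* (-0.93).

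Calls in the immune lists are given with their shares of the members tested. C-type lectins gave 2 higher and 5 lower of 120 (1.67% and 4.17%, against 4.22% and 1.93% of all genes tested), with *clec-52* (0.59) and *clec-230* (1.16) among the rises and *clec-85* (-0.67) among the falls. Of 13 lysozymes, enzymes that break bacterial walls, 1 rose and 1 fell, each 7.69% of the list. *ilys-2*, of the invertebrate type, had 26.6 and 69.7 with OP50 and 128 and 172 with OP50 + LL100933, a log2 fold change of 1.67 ± 0.38 (adjusted p = 0.0454). *ilys-5*, of the same type and far more abundant, had 12161 and 9887 with OP50 and 5672 and 6708 with OP50 + LL100933 and -0.83 ± 0.15 (adjusted p = 0.0296). The libraries of the diets did not overlap in either, as in every called gene. *T24B8.5*, a ShK-domain protein used as a reporter of the PMK-1 pathway, had 548 and 503 with OP50 and 294 and 322 with OP50 + LL100933, a log2 fold change of -0.77 ± 0.14 (adjusted p = 0.0305). It and *C17H12.8* (-0.52) were the 2 called of 51 saposin-like, thaumatin and PMK-1 effector genes (3.92%, against 1.93% of all genes). Of these 51, 0 were called higher. The 202 genes annotated in the tables to the innate immune response gave 4 higher and 7 lower, shares of 1.98% and 3.47% against 4.22% and 1.93%.

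Detoxification and stress lists are set beside the 4.22% higher and 1.93% lower of all genes tested. Glutathione S-transferases gave 0 of 45 by edgeR and 1 by DESeq2, with 8 at an unadjusted p under 0.05, and short-chain dehydrogenases 0 of 33 by either tool, with 2. Glucuronosyltransferases gave 1 higher (*ugt-2*, 0.95) and 1 lower of 61 (1.64% each). Of the cytochromes P450, 0 of 64 were higher and 3 lower (4.69%), *cyp-31A2*, *cyp-31A3* and *cyp-31A5*. Of this group *cyp-31A2* and *cyp-31A3* act in making the lipid-rich layer of the eggshell. The 3 genes changed by -0.51, -0.53 and -0.47, and as close copies may share reads. Among heat shock proteins *hsp-12.2* (0.71) was the 1 called of 18 (5.56%). Among antioxidant enzymes the superoxide dismutase *sod-4* (0.67) was the 1 of 23 (4.35%). Both shares lay near the share of all genes called higher.

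Of the delta-9 desaturases, *fat-5* and *fat-7* were called and *fat-6* was not (0.48 ± 0.18 (adjusted p = 0.109)). *fat-7* had 122 and 130.4 with OP50 and 223 and 233 with OP50 + LL100933, a log2 fold change of 0.85 ± 0.16 (adjusted p = 0.0314), and *fat-5* had 597 and 649 with OP50 and 1328 and 1027 with OP50 + LL100933 and 0.92 ± 0.14 (adjusted p = 0.0211). Both enzymes introduce the first double bond into saturated fatty acids, and their values did not overlap between the diets, as in every called gene. The list of fatty acid synthesis and desaturation gave these 2 of 27 higher (7.41%, against 4.22% of all genes tested), with a median of 0.10. By edgeR, beta-oxidation genes gave 0 of 51, lipases and lipid binding proteins 0 of 25, and glycolysis 0 of 26. DESeq2 called 3, 2 and 2 of them, and 12, 6 and 4 had an unadjusted p under 0.05. Vitellogenins, the yolk proteins made in the intestine, gave 0 called of 6 by edgeR and 2 by DESeq2, with 2 at an unadjusted p under 0.05, all 6 below 0 and a median of -0.62. *vit-2* had 393970 and 605230 with OP50 and 396460 and 339480 with OP50 + LL100933, and -0.44 ± 0.28 (adjusted p = 0.302). *vit-6* had 467890 and 651240 with OP50 and 417520 and 400820 with OP50 + LL100933, and -0.45 ± 0.26 (adjusted p = 0.263). Together the 6 genes took 6.31% and 8.85% of all counts with OP50 and 5.52% and 5.51% with OP50 + LL100933, and the OP50 libraries differed from each other by more than the lower of them differed from the OP50 + LL100933 libraries. Of the intestinal identity list, *ifb-2* (0.59) was the 1 called of 25, a share of 4.0% that is close to that of all genes.

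In 4 lists of meiosis, cell division, germ granule and oocyte genes, 22 of 145 tested members were called lower (15.2%, against 1.93% of all genes tested) and 0 higher, 123 were not called, 144 lay below 0, and the median was -0.41. The meiosis list gave 9 of 41. *rad-54*, a recombination protein, had 547 and 562 with OP50 and 350.0 and 352 with OP50 + LL100933, a log2 fold change of -0.66 ± 0.13 (adjusted p = 0.034). *syp-3*, of the synaptonemal complex, changed by -0.51 ± 0.12, and *mre-11*, which processes DNA breaks, by -0.46 ± 0.10. The division list gave 4 of 41, with the replication helicase subunit *mcm-5* (-0.49), and the kinesins *zen-4* (-0.46) and *bmk-1* (-0.45). Germ granule and germline RNA genes gave 5 of 38. *gld-3*, an RNA-binding protein of the BicC family, had 5207 and 5661 with OP50 and 3404 and 3893 with OP50 + LL100933, a log2 fold change of -0.57 ± 0.12 (adjusted p = 0.0388). *glh-4*, a helicase of P granules, and *mes-4*, a histone methyltransferase, had log2 fold changes of -0.61 and -0.48. For each of these genes the OP50 libraries were the 2 highest of the 4, as in every gene called lower and in 29.9% of all genes tested. The 22 calls became 79 without OP50 replicate 1, 5 without OP50 replicate 2 and 0 without any one *Lactococcus* library, with medians of -0.51 to -0.31, and 4 with upper-quartile scaling. They became 0 in edgeR on the 4 libraries of the pair, where 91 members had an unadjusted p under 0.05 and DESeq2 called 8. Fewer germ cells and less RNA per germ cell cannot be told apart in whole worms.

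Abundant genes of the eggshell were among the called falls. *perm-2* and *perm-4*, which build the permeability barrier of the eggshell, lie next to each other on chromosome IV (1126790 to 1128848 and 1121457 to 1125107). *perm-4* had 19890 and 23944 with OP50 and 14944 and 13563 with OP50 + LL100933, a log2 fold change of -0.62 ± 0.15 (adjusted p = 0.0475). *perm-2* had 19010 and 20953 with OP50 and 14191 and 12815 with OP50 + LL100933 and -0.57 ± 0.14 (adjusted p = 0.0484). *egg-3*, needed when the oocyte becomes an embryo, had 1892 and 1944 with OP50 and 1394 and 1288 with OP50 + LL100933 and -0.52 ± 0.11 (adjusted p = 0.0415). *ule-5*, named for a protein of the uterine lumen, on chromosome X (11883127 to 11884043) had 6424 and 7307 with OP50 and 4449 and 4258 with OP50 + LL100933, a log2 fold change of -0.66 ± 0.12 (adjusted p = 0.0296), and *ule-3* changed by -0.61. The 4 tested genes of this stretch, *ule-5* included, which were looked at after its value was known, were all called lower. *Y62H9A.3* changed by -0.66, *Y62H9A.4* by -0.85, *Y62H9A.5* by -0.54 and *ule-5* by -0.66, within a stretch that begins at 11879110. The genes *ZK813.7* (-0.64), *D1086.10* (-0.62) and *C44B7.5* (-0.60) completed, with *col-122*, *ilys-5* and *gld-3*, the 10 greatest falls in counts among called genes. Zygotic embryo genes gave 2 lower of 25, *nhr-2* (-0.61) and *vet-1* (-0.75), with a median of -0.42 (8% called, against 1.93% of all genes tested). Without OP50 replicate 2 the median was -0.05 and without OP50 + LL100933 replicate 1 it was -0.66, and both calls were lost in these fits and in those without any other *Lactococcus* library.

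Of the lists of basic cell functions, some had medians below 0 and others near 0. The median was -0.39 for the nuclear pore (4 of 26 called lower), -0.31 for the proteasome (2 of 33), -0.30 for aminoacyl-tRNA synthetases (2 of 32), -0.30 for the spliceosome (2 of 45), -0.29 for the nucleolus (2 of 24) and -0.25 for translation factors (2 of 43), with 0 called higher in each. The shares called lower were 4.44% to 15.4%, against 1.93% of all genes tested. The medians were 0.06 for glycolysis and for the nuclear genes of the respiratory chain. All 33 proteasome genes and all 32 synthetases lay below 0, and these 6 medians kept their sign in all 16 alternatives. *npp-12*, a nuclear pore protein, had 2555 and 2712 with OP50 and 1832 and 1854 with OP50 + LL100933, *rpn-7*, a proteasome lid subunit, had 3838 and 3548 with OP50 and 2823 and 2482 with OP50 + LL100933, and *mars-1*, the methionyl-tRNA synthetase, had 2878 and 2753 with OP50 and 2069 and 1956 with OP50 + LL100933. Their log2 fold changes were -0.51 ± 0.10, -0.48 ± 0.11 and -0.48 ± 0.10. Cytosolic ribosomal proteins gave 0 of 80 by edgeR, by DESeq2 and at an unadjusted p under 0.05, with a median of 0.09. Mitochondrial ribosomal proteins gave 0 of 67 by either tool and 17 at an unadjusted p under 0.05, with a median of -0.23 and 58 below 0. In the mitochondrion *sdha-2*, a subunit of succinate dehydrogenase, had 2501 and 2670.1 with OP50 and 1749 and 1584 with OP50 + LL100933, a log2 fold change of -0.63 ± 0.11 (adjusted p = 0.0275), and *sucg-1* (-0.54) and *nduf-2.2* (-0.57) were also lower. The other nuclear genes of the respiratory chain, 68 of 69, were not called.

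Sperm genes and markers of other stages and of males were read as checks on the worms. Of 47 tested sperm genes 0 were called by edgeR or DESeq2 and 2 had an unadjusted p under 0.05, with a median of 0.15. Their summed level was 3688 and 2444 with OP50 and 3648 and 2111 with OP50 + LL100933, which overlap. Without 1 library at a time the median of this list ran from -0.71 to 0.98. The male-specific list had 11 tested genes, of which *col-34* (0.82), a collagen, was called. Its summed level was 934 and 789 with OP50 and 1458 and 1452 with OP50 + LL100933, while *lov-1* and *pkd-2* were near 0 in both. The larval moulting list had summed levels of 55200 and 52400 with OP50 and 69810 and 64340 with OP50 + LL100933, and the embryo list 9327 and 10840 against 9770 and 9726. The part of these stages and cell types in the other results was not tested.

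The called genes were unevenly placed on the genome and by gene length. On the X chromosome 5.68% of 2235 tested genes were higher and 0.895% lower, against 3.96% and 2.12% of 12650 autosomal genes. The median log2 fold change was 0.22 on X, 0.13 on chromosome V and between -0.11 and -0.02 on the other autosomes. The gene groups described above also lie unevenly, with 26.6% of the neuronal, 21.6% of the muscle and 3.45% of the germline list members on X, against 2235 of the 14899 genes tested. Calls rose with the exon length that the count tables give. In the shortest 20% of the genes 2.42% were higher and 0.906% lower, and in the longest 20% 7.55% and 2.99%. The median length was 1744 bases for genes called higher and 1616 for those called lower, against 1310 for all genes tested. Low genes were seldom called, 0.336% higher and 0 lower in the 20% of lowest mean level, where the counts give least precision. The part of length and level in these shares was not tested.

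**Figure D5:**
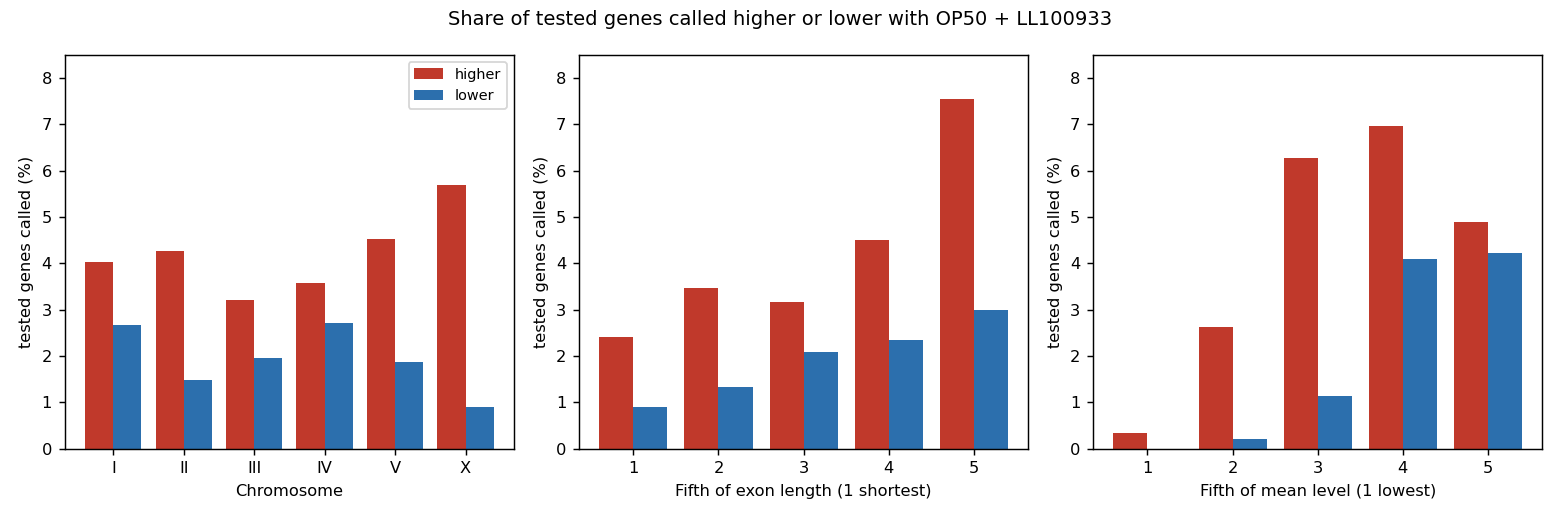
Percent of tested genes called higher (red) or lower (blue) with OP50 + LL100933 on each chromosome (left), in bins of exon length (middle) and of mean level (right) that each hold 20% of the genes. The bars start at 0. Of the nuclear chromosomes, X has the highest share called higher (5.68%) and the lowest share called lower (0.895%), and both shares are largest in the longest genes (7.55% and 2.99%).

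The LL12007 diet, compared with the same OP50 libraries, gave 1301 genes higher (8.73%) and 1116 lower (7.49%). As both comparisons share their control libraries, the values are only set side by side. *Y41C4A.32* had 558 and 572 normalized counts with LL12007 and *hrg-7* had 3362 and 2837. The median of the muscle lists was 0.55 with LL12007 and 0.49 with LL100933, that of the neuronal lists 0.62 and 0.52, and that of the germline lists -0.55 and -0.41. When the diets were tested against each other, edgeR called 0 genes at the adjusted threshold, with 1541 of 14899 at an unadjusted p under 0.05 (10.3%), and DESeq2 called 150. Some called genes had quite different values beside LL12007. *fbxa-24*, an F-box gene, had 2193 and 2047 with OP50 and 3225 and 3852 with OP50 + LL100933, but 1792 and 1981 with LL12007. *F09C8.1* had 498 and 287 with OP50 and 191 and 193 with OP50 + LL100933, but 460 and 510.5 with LL12007. *ilys-5* had 9777 and 10075 with LL12007, close to its OP50 values, and *ugt-44* had 616 and 641. As edgeR called 0 genes between the *Lactococcus* diets, none of these passed its adjusted threshold, which is not particular to them.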

How the data were processed

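Messenger RNA of whole worms was purified and made into libraries with the SMARTer Stranded Total RNA-Seq kit, and sequenced as paired-end reads on a HiSeq instrument. Per the submitters' processing notes, the authors used Trim Galore 0.6.5, Trimmomatic 0.39 and cutadapt 2.7 for trimming, STAR 2.7.2b for alignment to ce11 (WBcel235) and featureCounts 1.6.4 for the gene counts, while the study's methods name other versions. The deposited counts are whole numbers with no normalization. How strand and reads matching several places were handled is not given in the sources used here.

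Counts of all 6 libraries were filtered (filterByExpr), scaled by TMM and tested with the robust quasi-likelihood F test of edgeR 4.0.16 (limma 3.58.1, R 4.3.3), with group as the only term, the contrast OP50 + LL100933 minus OP50, and Benjamini-Hochberg adjustment over 14899 genes at 0.05. The study's methods name DESeq without its samples, so DESeq2 1.42.0 was an alternative. The SE was derived from the fold change and the F statistic, as edgeR gives none (log2 fold change over root F). The script was tested on simulated data. Gene lists (79) were described by counts and medians, without a set test. Genes were named by rule: those of the study's real-time PCR, *daf-16*, *pmk-1* and *skn-1*, the 15 largest rises and falls, the 10 largest in counts and the 10 of lowest p in each direction, and in each list the 3 called members of lowest p in each direction (the 2 most abundant where none was called). *tni-4*, *Y62H9A.5* and the counts of marker genes were added after values were seen. The comparison and the lists were chosen with earlier results of these data known. No sequences were used.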

Additional observations from a re-analysis of the deposited data

How the results depend on the processing

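Against 628 genes higher and 288 lower as reported, DESeq2 on all 6 libraries called 904 and 530, DESeq2 on the 4 libraries of the pair 404 and 109, and edgeR on these 4 libraries 47 and 4. Upper-quartile scaling gave 819 and 123 and no filter on low counts 725 and 181. Size factors of DESeq2 in edgeR, a filter of 1 CPM in 2 libraries, the non-robust fit and the older quasi-likelihood method stayed within 1.5 times, at 546 to 713 and 200 to 334. Leaving out 1 library gave 1 to 1643 higher and 0 to 1029 lower. The cause of these shifts was not tested. Deviations of same-numbered libraries correlated at -0.00158 between OP50 and OP50 + LL100933, at -0.0582 between OP50 and OP50 + LL12007 and at 0.199 between the *Lactococcus* diets, so the numbers were not taken as pairs. With the replicate block 166 genes were higher and 33 lower, and the *Lactococcus* diets differed in 0. Of 182 named genes called, 1 to 181 kept their call in an alternative. Between the *Lactococcus* diets, where edgeR called 0, alternatives chosen after seeing the data called 150 (DESeq2), 399 (edgeR on those 4 libraries) and 0 to 460 without 1 library. Uncalled genes that changed sign when 1 library was left out were *tba-1* (-0.43 to 0.0082), *cyp-33E2* (-0.0159 to 0.40) and *cyc-1* (-0.061 to 0.23). With 2 libraries per diet, small fold changes of genes with few counts were not detectable.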

Other observations

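Some abundant or steep genes did not pass the test. The ribosomal RNA gene *rrn-3.1* had 30665 and 15204 normalized counts with OP50 and 161170 and 23948 with OP50 + LL100933, and its log2 fold change of 2.01 ± 1.004 did not pass the test of edgeR (adjusted p = 0.25). The lipase gene *lips-6* had 72.4 and 157 with OP50 and 305 and 832 with OP50 + LL100933, 2.32 ± 0.69 on the log2 scale (adjusted p = 0.103), with a fold change of -0.55 for LL12007. The collagen gene *dpy-13* had 8452 and 2372 with OP50 and 11308 and 10533 with OP50 + LL100933, 1.01 ± 0.59 on the log2 scale (adjusted p = 0.306), and *col-101* had 18048 and 4872 against 5463 and 4651, -1.18 ± 0.63 (adjusted p = 0.269). In both collagen genes the OP50 libraries were far apart, which was also the case for *vit-1*, at 18004 and 5890. These genes were chosen after their values were seen.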
